A study of Mus musculus with 12 samples.

Results

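The transcripts of the cytosolic ribosomal proteins were followed across adipocytes and stromal vascular cells (SVCs) of 2 mouse fat depots. Members were all genes whose symbol had the form Rpl or Rps followed by a number, with at most a short suffix, together with Rplp0, Rplp1, Rplp2 and Rpsa, and without the Rps6k kinases. There were 84 such genes among the 24890 features listed, 33 with symbols of small-subunit and 51 with symbols of large-subunit proteins. Of these, 82 reached 1 FPKM (fragments scaled by transcript length and by the library's mapped fragments) in at least 3 libraries and were tested. The other two, Rpl3l and Rpl10l, stayed below that level.

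All libraries came from male C57BL/6J mice, 18 weeks of age, without treatment and on normal chow. The groups were adipocytes of epididymal adipose tissue (EAT), a visceral depot, adipocytes of inguinal adipose tissue (IAT), a subcutaneous depot, and the SVCs of each. Collagenase I had been used to free the floating adipocytes from the SVCs, a mixture of progenitors, endothelial and immune cells. Each of the 4 groups held 3 libraries. Whether a library represents 1 mouse or a pool is not stated, so the p values rest on the spread among libraries, which may be technical.

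Ribosomal proteins coat the rRNA of the small and the large subunit, and nearly all are needed once per ribosome. Their mRNAs start with a run of pyrimidines, the terminal oligopyrimidine (TOP) tract, through which mTORC1 and the RNA-binding protein Larp1 set how strongly they are translated. The mRNAs are long-lived, rank among the most abundant of most cells, and several, such as Rplp0, Rpl13a, Rpl32 and Rps18, serve as reference genes in quantitative PCR of adipose tissue. A few members have paralogues with restricted expression, for which mouse testis and striated muscle are the known sites.

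The libraries held an estimated 14090000 to 24650000 gene fragments each, derived from the deposited confidence bounds as if these held counting error alone. Per library, 10726 to 12425 features reached 1 FPKM. For members of at least 50 FPKM the median deposited confidence bound lay 1.55% to 3.17% from the value, which leaves out the spread among libraries. Markers matched the labelled fractions: 8 adipocyte genes summed to 31804 to 43301 FPKM in EAT adipocytes and 35701 to 39478 FPKM in IAT adipocytes, against 4460.4 to 5241 and 6448 to 7281 FPKM in the respective SVCs. EAT adipocyte replicate 1 stood apart for this gene family, though not for it alone. All 82 tested members were higher in it than in replicates 2 and 3 of its group, by a factor of 1.17 to 1.84 over the mean of the other two (median 1.53) among the 77 members of at least 50 FPKM on average. Its log2 difference from those libraries had a median of 0.61 over the tested members and -0.01 over all features, with the same libraries. Summed over all features its FPKM were 527900.0, against 431810.0 and 446940.0 in replicates 2 and 3, and its 8 adipocyte markers summed to 43301 FPKM, against 31804 and 32916 FPKM. The part of these totals in the family's level was not tested. Genes outside the family also differed in EAT adipocyte replicate 1, in both directions. Mitochondrial ribosomal proteins held 0.721% of all FPKM in it, against 0.596% and 0.619% in replicates 2 and 3. Mtor measured 4.65 FPKM in it, against 8.28 and 7.34. Counts of members that rest on this library are given with and without it, and single-gene values include it unless stated.

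The family took its largest share of the measured transcripts in SVCs, and above all in those of IAT. In EAT adipocytes the members held 8.53, 6.44 and 6.75% of all FPKM (7.24 ± 1.13%, mean ± SD, n = 3, and 6.60% without replicate 1). The share in IAT adipocytes was 7.64, 7.23 and 7.02% (7.30 ± 0.314%). EAT SVCs gave 12.1, 13.2 and 12.6% (12.7 ± 0.541%) and IAT SVCs 18.01, 19.3 and 17.3% (18.2 ± 1.01%). No SVC library overlapped an adipocyte library, and no IAT SVC library overlapped an EAT SVC library, whereas the adipocytes of both depots overlapped. That overlap rested on EAT adipocyte replicate 1, above every IAT adipocyte library, while EAT adipocyte replicates 2 and 3 lay below them all. The median member stood at 382 ± 99.9 FPKM in EAT adipocytes, 396 ± 27.1 in IAT adipocytes, 727 ± 27.4 in EAT SVCs and 1150.0 ± 118 in IAT SVCs. Of the 77 members of at least 50 FPKM on average, 74 had group means in the order IAT SVCs, EAT SVCs, then both adipocyte groups. Rplp2, Rpl22l1 and Rps27l did not. In bulk samples, fewer cells of a type and less RNA per cell cannot be told apart.

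**Figure D1:**
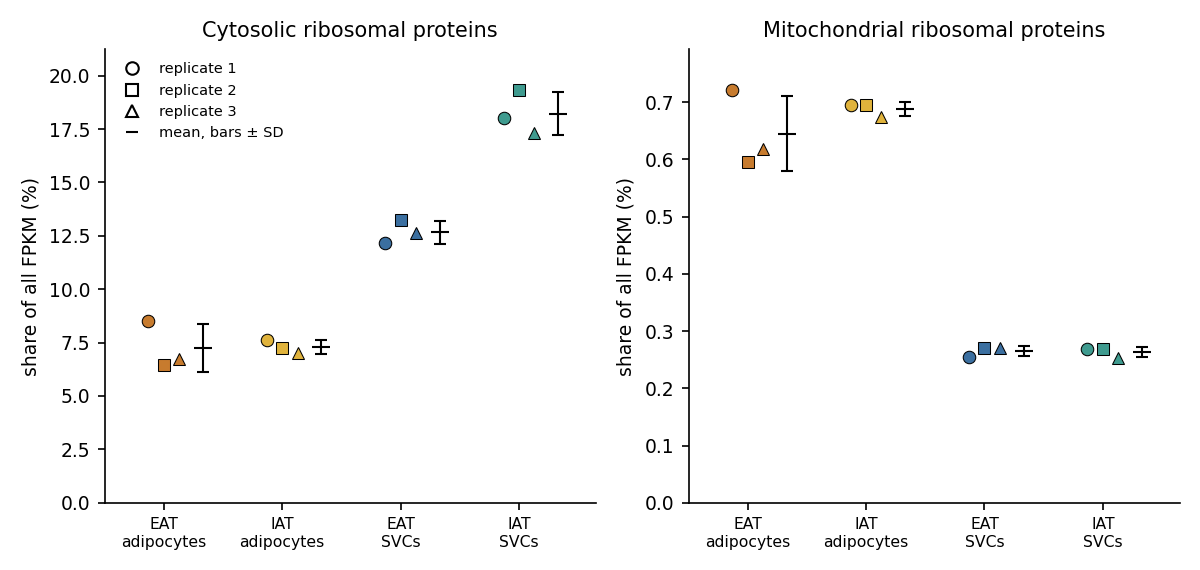
Share of all FPKM (%, y axis) held by the cytosolic (left) and the mitochondrial ribosomal protein genes (right) in each of the 12 libraries, by group; points are libraries, bars the mean ± SD of 3. The cytosolic share is 18.2% in IAT SVCs and 12.7% in EAT SVCs, above every adipocyte library, while the mitochondrial share is higher in adipocytes.

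The fraction comparison asked how adipocytes differ from the other cells of the same depot. In EAT, 71 of 82 members were lower in adipocytes than in SVCs and 3 were higher, by limma's adjusted p under 0.05. Of all features tested, 52.7% were lower and 31.1% higher in this comparison. The members' median log2 difference was -0.89, and that of all features -0.31. Without EAT adipocyte replicate 1, 77 members were lower and 3 higher (background 53.5% and 31.8%), with a median of -1.10. All 74 members called with that library were also called without it, and Rps27l, higher in adipocytes, was then at 0.32 ± 0.08. In that setting the groups did not overlap for 77 lower and 3 higher members (55.7% and 33.8%). In IAT, 76 members were lower in adipocytes and 4 higher, against 53.9% and 29.8% of all features, with a median log2 difference of -1.46 and -0.34 over all features. Leaving EAT adipocyte replicate 1 out of the shared spread gave 76 and 4 (background 56.1% and 31.2%). The EAT groups did not overlap for 67 lower and 3 higher members (52.3% and 30.8% of all features), and the IAT groups for 77 and 5 (56.7% and 31.6%). Under a median-of-ratios scaling, which moved the median of all features to 0.03 in EAT and 0.02 in IAT, the members' medians were -0.50 and -1.03. Then 54 members were lower and 5 higher in EAT (all features, 40.7% and 42.5%), and 69 and 5 in IAT (40.7% and 42.3%).

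Rplp0, the core protein of the acidic stalk that recruits elongation factors, stood close to the family's middle. Its level was 493, 364 and 389 FPKM in EAT adipocytes, 444, 419 and 405 in IAT adipocytes, 782, 943 and 814 in EAT SVCs and 1304, 1402 and 1173 in IAT SVCs. Every SVC library lay above every adipocyte library, with a log2 difference of -1.03 ± 0.13 (SE), adjusted p = 5.8e-06 in EAT and -1.61 ± 0.13 (SE), adjusted p = 7e-08 in IAT. Rplp1, its partner in the stalk and the member with the highest mean level, followed it, at -0.91 ± 0.21 (SE), adjusted p = 0.0014 in EAT and -1.49 ± 0.21 (SE), adjusted p = 2.4e-05 in IAT. The third stalk protein, Rplp2, differed less between the fractions, with -0.24 ± 0.20 (SE), adjusted p = 0.29 in EAT and -0.58 ± 0.20 (SE), adjusted p = 0.018 in IAT. Its level was 1688, 984 and 1089 FPKM in EAT adipocytes, 1601, 1557 and 1446 in IAT adipocytes, 1219, 1830.4 and 1324 in EAT SVCs and 2248, 2559.8 and 2077 in IAT SVCs. Rplp2 thus overlapped between EAT adipocytes and EAT SVCs, as Rplp0 did not, but through EAT adipocyte replicate 1 alone. EAT adipocyte replicates 2 and 3 lay below every EAT SVC library for Rplp2.

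Rpl12, which joins Rplp0 at the base of the stalk, had the largest fraction difference of any tested member in IAT. Its level was 426, 277 and 291 FPKM in EAT adipocytes, 381, 347 and 320.2 in IAT adipocytes, 849, 991 and 927 in EAT SVCs and 1712, 1996 and 1637 in IAT SVCs. IAT SVCs held 5.10 times the level of IAT adipocytes and EAT SVCs 2.78 times that of EAT adipocytes, without overlap (log2 difference -2.35 ± 0.15 (SE), adjusted p = 1.1e-08 in IAT and -1.50 ± 0.15 (SE), adjusted p = 1e-06 in EAT). Among the other members with the largest decreases were the small-subunit proteins Rps16 (log2 difference -1.35 ± 0.16 in EAT and -2.11 ± 0.16 in IAT) and Rps28 (-1.48 ± 0.18 in EAT and -1.83 ± 0.18 in IAT). In IAT, those ranking there too were Rps15a at -2.14 ± 0.15, Rpl13a at -1.99 ± 0.17 and Rpl17, a protein lining the peptide exit tunnel, at -1.93 ± 0.14, with adjusted p values of 2.6e-08, 1.5e-07 and 3e-08. Rps27 also fell in EAT (-2.79 ± 0.84 (SE), adjusted p = 0.008), but its row shares its locus with a near-identical row, described further on.

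Rps6, the ribosomal protein phosphorylated by the S6 kinases downstream of mTORC1, measured 383, 253 and 264 FPKM in EAT adipocytes, 307, 296 and 283 in IAT adipocytes, 485, 486 and 529 in EAT SVCs and 866, 976 and 823 in IAT SVCs. Adipocytes were lower without overlap in both depots (log2 difference -0.76 ± 0.14 (SE), adjusted p = 0.00021 in EAT, -1.58 ± 0.14 (SE), adjusted p = 2.1e-07 in IAT). Rpsa, a small-subunit protein also known as a laminin receptor, gave -0.57 ± 0.15 in EAT and -1.32 ± 0.15 in IAT, and Rps27a, made as a fusion with ubiquitin, -0.88 ± 0.19 and -1.65 ± 0.19. Adjusted p values were 0.0029 and 2.4e-06 for Rpsa and 0.00081 and 3e-06 for Rps27a. The family's PCR reference genes were also lower in adipocytes. Rpl13a gave -1.05 ± 0.17 in EAT, Rpl32 -0.82 ± 0.14 and Rps18 -0.81 ± 0.15, and in IAT they gave -1.99 ± 0.17, -1.42 ± 0.14 and -1.66 ± 0.15. The highest group mean was 3.998 times the lowest for Rpl13a, 3.16 times for Rps18, 3.11 times for Rplp0 and 2.77 times for Rpl32. Among reference genes outside the family, this ratio was 1.17 for Actb, which encodes cytoplasmic actin, 1.34 for Tbp, the TATA-binding protein, and 1.35 for Ppia, cyclophilin A.

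**Figure D2:**
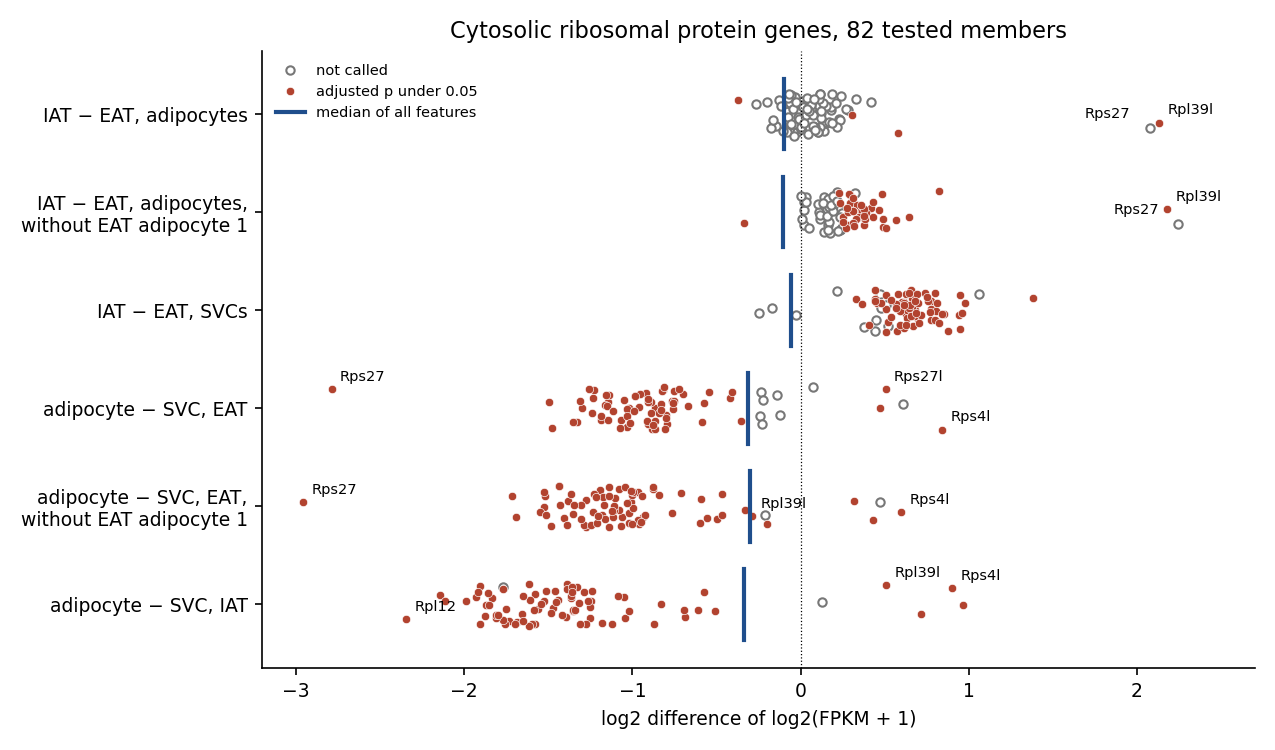
Log2 difference (x axis, of log2(FPKM + 1)) of the 82 tested members in the 4 comparisons, with both that use EAT adipocytes shown again without EAT adipocyte replicate 1; filled points passed an adjusted p under 0.05, open points did not, and the vertical bar is the median of all features. Most members sit left of that bar in both fraction comparisons and right of it for IAT minus EAT SVCs. Without EAT adipocyte replicate 1 the adipocyte depot comparison has 41 filled points on the right instead of 3. The corresponding shares of all features are 14.7% and 10.3%.

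A few members were higher in adipocytes. In EAT these were Rps4l, Rps27l and Rpl7l1, named after Rps4x, Rps27 and Rpl7. Rps4l rose by 0.84 ± 0.20 (SE), adjusted p = 0.0014, Rps27l by 0.51 ± 0.13 (SE), adjusted p = 0.0034, and Rpl7l1 by 0.47 ± 0.07 (SE), adjusted p = 4.6e-05. In IAT, Rps4l rose by 0.90 ± 0.20 (SE), adjusted p = 0.00085, Rps27l by 0.71 ± 0.13 (SE), adjusted p = 0.00026 and Rpl39l by 0.51 ± 0.11 (SE), adjusted p = 0.00075. Rpl26 was called there too (0.96 ± 0.30 (SE), adjusted p = 0.0099), at 29.00 ± 11.1 FPKM in adipocytes and 13.7 ± 2.49 in SVCs, but its row shares its locus with a near-identical row. The members of the pairs are described together below.

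The SVC depot comparison asked how the stromal cells of the 2 depots differ. In IAT SVCs, 70 of 82 members were higher than in EAT SVCs and 0 lower, while 14.0% of all features were higher and 26.2% lower. The counts of higher members include Rpl39l, which passed the filter on low values through IAT libraries alone. The members' median log2 difference was 0.64, and that of all features -0.06. The 3 libraries of each group did not overlap for 76 members higher in IAT and 1 lower, Rps27l, against 20.1% and 35.0% of all features. Under quantile scaling 55 members were higher and 1 lower, with a median of 0.30 (21.02% and 20.8% of all features). Under median-of-ratios scaling the counts were 72 and 0 (18.5% and 18.9%). EAT adipocyte libraries do not enter this contrast, but they share its estimate of the spread, and 78 members were higher without EAT adipocyte replicate 1 and 0 lower (background 17.7% and 32.4%).

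Rps19 and Rps24, small-subunit proteins whose human genes are mutated in Diamond-Blackfan anaemia, had the largest differences among the called members of at least 5 FPKM. Rps19 measured 669.6, 385 and 423 FPKM in EAT adipocytes, 555, 525 and 475 in IAT adipocytes, 508, 559 and 616 in EAT SVCs and 1082, 1251 and 986 in IAT SVCs. It rose 1.97-fold between the SVC groups (log2 difference 0.98 ± 0.18 (SE), adjusted p = 0.00082), and EAT SVCs overlapped both adipocyte groups. The overlap with EAT adipocytes came through EAT adipocyte replicate 1 alone. Rps24 rose 1.95-fold, from 809, 849 and 919 to 1603, 1889.8 and 1544 FPKM (log2 difference 0.96 ± 0.18 (SE), adjusted p = 0.00079). Rpl12 rose by 0.95 ± 0.15 (SE), adjusted p = 0.00032. Rpl13a, a large-subunit protein, measured 706, 770.2 and 783 FPKM in EAT SVCs and 1399, 1661 and 1313 in IAT SVCs, without overlap (log2 difference 0.95 ± 0.17 (SE), adjusted p = 0.00068). Rps15a rose from 67.4, 71.9 and 74.5 to 138, 149.6 and 126 FPKM (log2 difference 0.94 ± 0.15 (SE), adjusted p = 0.00033). Rplp0, Rps6, Rpsa, Rps27a, Rpl32 and Rps18 rose by 0.61 ± 0.13, 0.82 ± 0.14, 0.77 ± 0.15, 0.70 ± 0.19, 0.66 ± 0.14 and 0.80 ± 0.15 on the log2 scale, with adjusted p values of 0.00042 to 0.01. Rpl10, a late-joining protein of the large subunit, did not pass the test, at 0.22 ± 0.12 (SE), adjusted p = 0.19. Its IAT SVC libraries nevertheless all lay above its EAT SVC libraries.

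Lymphocyte markers differed between the same libraries. The 7 T cell markers found of 8 listed summed to 17.3 to 19.03 FPKM in EAT SVCs and 113 to 179 in IAT SVCs, and 7 of 7 tested were higher in IAT. The 8 B cell markers summed to 42.1 to 45.2 and 176 to 274 FPKM, with 8 of 8 higher. Within IAT SVCs, replicate 2 had the highest sum of T cell markers and of B cell markers (274 FPKM, against 176 and 201) and the highest ribosomal share. It also had the highest red cell, fibroblast and mesothelial sums of its group. Macrophage markers went the other way, at 4409.6 to 4639.9 FPKM in EAT SVCs and 2428 to 2676 in IAT SVCs, with 7 of 8 lower in IAT. Mesothelial markers fell from 429.8 to 500.4 to 1.76 to 2.78 FPKM (8 of 8 lower), with Wt1 at 0 in all IAT SVC libraries. Globin and other red cell transcripts summed to 17199 to 22127 FPKM in EAT SVCs and 24937 to 30084 in IAT SVCs. The 8 cell cycle genes summed to 196 to 220.2 and 252 to 259 FPKM, a higher sum in IAT SVCs, although by gene 1 was higher and 6 were lower there. Adipocyte markers summed to 4460.4 to 5241 and 6448 to 7281 FPKM, with 7 of 8 higher in IAT. Fibroblast and progenitor markers summed to 4659 to 5436 and 6048 to 6199.9, although by gene 5 of 8 were higher and 3 lower in IAT. Endothelial markers summed to 933 to 968 and 999.7 to 1222, with 4 of 8 higher. The part of each cell type in the family's difference was not tested.

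The adipocyte depot comparison depended on 1 library. With all libraries, 3 members were higher in IAT adipocytes (among them Rpl39l and Rps4l) and 1 was lower (Rpl7l1), against 10.3% and 27.3% of all features. Rpl39l passed the filter on low values through IAT libraries alone, so its call here is no independent result. The members' median log2 difference was 0.06, and that of all features -0.10. Without EAT adipocyte replicate 1, 41 members were higher and 1 lower, the background being 14.7% and 34.7%, and the median was 0.25. The groups then did not overlap for 60 members higher in IAT and 1 lower (23.0% and 48.8% of all features), compared with 3 and 1 with it (13.5% and 34.8%). Under median-of-ratios scaling, with all libraries, 16.3% of all features were higher and 16.8% lower, with 4 and 1 members. The members' median turned to -0.01 under quantile scaling. All 4 members called with the library were also called without it. Without replicate 2 or 3 of either adipocyte group, in contrast, 1 member was higher in each case, and shares of all features are not shown there. EAT adipocytes without replicate 1 count 2 libraries, and the spread of the group is taken from all groups.

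For Rplp0 (493, 364 and 389 against 444, 419 and 405 FPKM) EAT replicate 1 lay above and EAT replicates 2 and 3 below every IAT library, and the difference of 0.04 ± 0.13 (SE), adjusted p = 0.86 became 0.17 ± 0.10 (SE), adjusted p = 0.19 without that library. Rplp2 went from 0.33 ± 0.20 (SE), adjusted p = 0.22 to 0.57 ± 0.15 (SE), adjusted p = 0.0088. Rps28 and Rps24 were also called without it, at 0.51 ± 0.11 (SE), adjusted p = 0.0029 and 0.49 ± 0.10 (SE), adjusted p = 0.0022. Rpl13a (0.23 ± 0.11 (SE), adjusted p = 0.089) and Rps6 (0.19 ± 0.08 (SE), adjusted p = 0.079) did not pass in that setting. In adipocytes, T cell markers summed to 0.324 to 0.425 FPKM in EAT (Cd3d at 0) and 1.41 to 1.95 in IAT, and macrophage markers to 485 to 632 and 86.5 to 129.

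The interaction asked whether the depot difference in adipocytes departs from that in SVCs. It was lower in adipocytes for 35 of 82 members and higher for 1, Rpl39l, which passed the filter on low values through IAT libraries alone, against 17.8% and 14.7% of all features. The median of the members was -0.56 and that of all features -0.04. Without EAT adipocyte replicate 1 the counts were 44 and 2 (background 21.8% and 18.3%), with a median of -0.36. All 36 members called with it were also called without it, at -0.78 ± 0.12 for Rps15a, -0.74 ± 0.10 for Rpl5 and -0.51 ± 0.16 for Rps27a. Over the settings tried, the count of members lower in the interaction ranged from 16 to 61. It was 16 without IAT SVC replicate 2, 17 without IAT adipocyte replicate 3, 18 without EAT SVC replicate 1, 22 without IAT adipocyte replicate 2 and 55 without EAT adipocyte replicate 2. Shares of all features with these libraries left out are not shown. Rps15a had the largest negative value, -0.997 ± 0.22 (SE), adjusted p = 0.0038, followed by Rpl22l1 and Rpl13a at -0.94 each. Rpl5, which binds the small rRNA of the large subunit before assembly and can restrain Mdm2, had -0.92 ± 0.19 (SE), adjusted p = 0.0022. Its level was 209, 141 and 145 FPKM in EAT adipocytes, 151, 146 and 142 in IAT adipocytes, 309, 316 and 342 in EAT SVCs and 536, 602 and 518 in IAT SVCs, so that the SVC groups were apart while the adipocyte groups overlapped. Rpl17 had -0.92 ± 0.20 (SE), adjusted p = 0.0037. Rplp0, Rps6 and Rps18 had -0.58 ± 0.18, -0.82 ± 0.20 and -0.85 ± 0.22, with adjusted p values of 0.027, 0.0066 and 0.011.

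To see which members moved apart from the rest, the median log2(FPKM + 1) of the 77 members of at least 50 FPKM was subtracted from every feature of a library and the fit repeated. Since the family itself differs between groups, the background of this fit is shifted. The members counted include Rpl39l, which passed the filter on low values through IAT libraries alone. Any call of Rpl39l between depots or in the interaction is therefore no independent result. In EAT, 34 members departed upwards in adipocytes and 14 downwards, with 58.5% and 18.7% of all features called higher and lower. In IAT the counts were 38 and 21 (background 76.2% and 11.1%). Between the SVC groups they were 14 and 14 (background 2.41% and 84.7%), and between the adipocyte groups 2 and 5 (background 3.82% and 11.4%). Without EAT adipocyte replicate 1 the last 2 counts were 9 and 9 (background 4.89% and 62.8%). With all libraries, the interaction counts were 6 and 12 (background 36.8% and 2.40%). Without EAT adipocyte replicate 1, the EAT fraction counts were 33 and 17 (background 69.6% and 17.7%), with 43 members called in both. The interaction counts were then 12 and 13 (background 41.2% and 5.19%). The quartiles of the members' centred values were -0.19 and 0.30 in IAT, the comparison with the largest common difference.

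Rpl12 lay furthest below the family in adipocytes among members that share no locus with another row, at -0.51 ± 0.06 (SE), adjusted p = 2.1e-06 in EAT and -0.79 ± 0.06 (SE), adjusted p = 1.1e-08 in IAT. Rps28 followed in EAT (-0.49 ± 0.07), with Rps16 (-0.36 ± 0.07). In IAT, Rps15a (-0.59 ± 0.08), Rps16 (-0.56 ± 0.07), Rpl13a (-0.44 ± 0.06) and Rpl17 (-0.38 ± 0.07) came next, with adjusted p values of 2.6e-06 to 9.8e-05. Above the family in EAT adipocytes were Rps4l, Rps27l, Rpl7l1 and Rpl22l1, at 1.83 ± 0.15, 1.49 ± 0.08, 1.46 ± 0.15 and 1.06 ± 0.15. Between SVCs, Rps19 (0.33 ± 0.07), Rps24 (0.32 ± 0.07), Rpl12 (0.30 ± 0.06), Rpl13a (0.30 ± 0.06) and Rps15a (0.29 ± 0.08) rose more than the family in IAT. Rps27l (-0.81 ± 0.08), Rpl7l1 (-0.67 ± 0.15) and Rpl10 (-0.43 ± 0.06) rose less or not at all. Between adipocytes, Rps3a1, Rps2, Rps4x, Rpl5 and Rpl6 lay below the family in IAT, at -0.28 ± 0.07, -0.25 ± 0.06, -0.24 ± 0.07, -0.23 ± 0.07 and -0.20 ± 0.06, and they were called without EAT adipocyte replicate 1 as well.

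**Figure D3:**
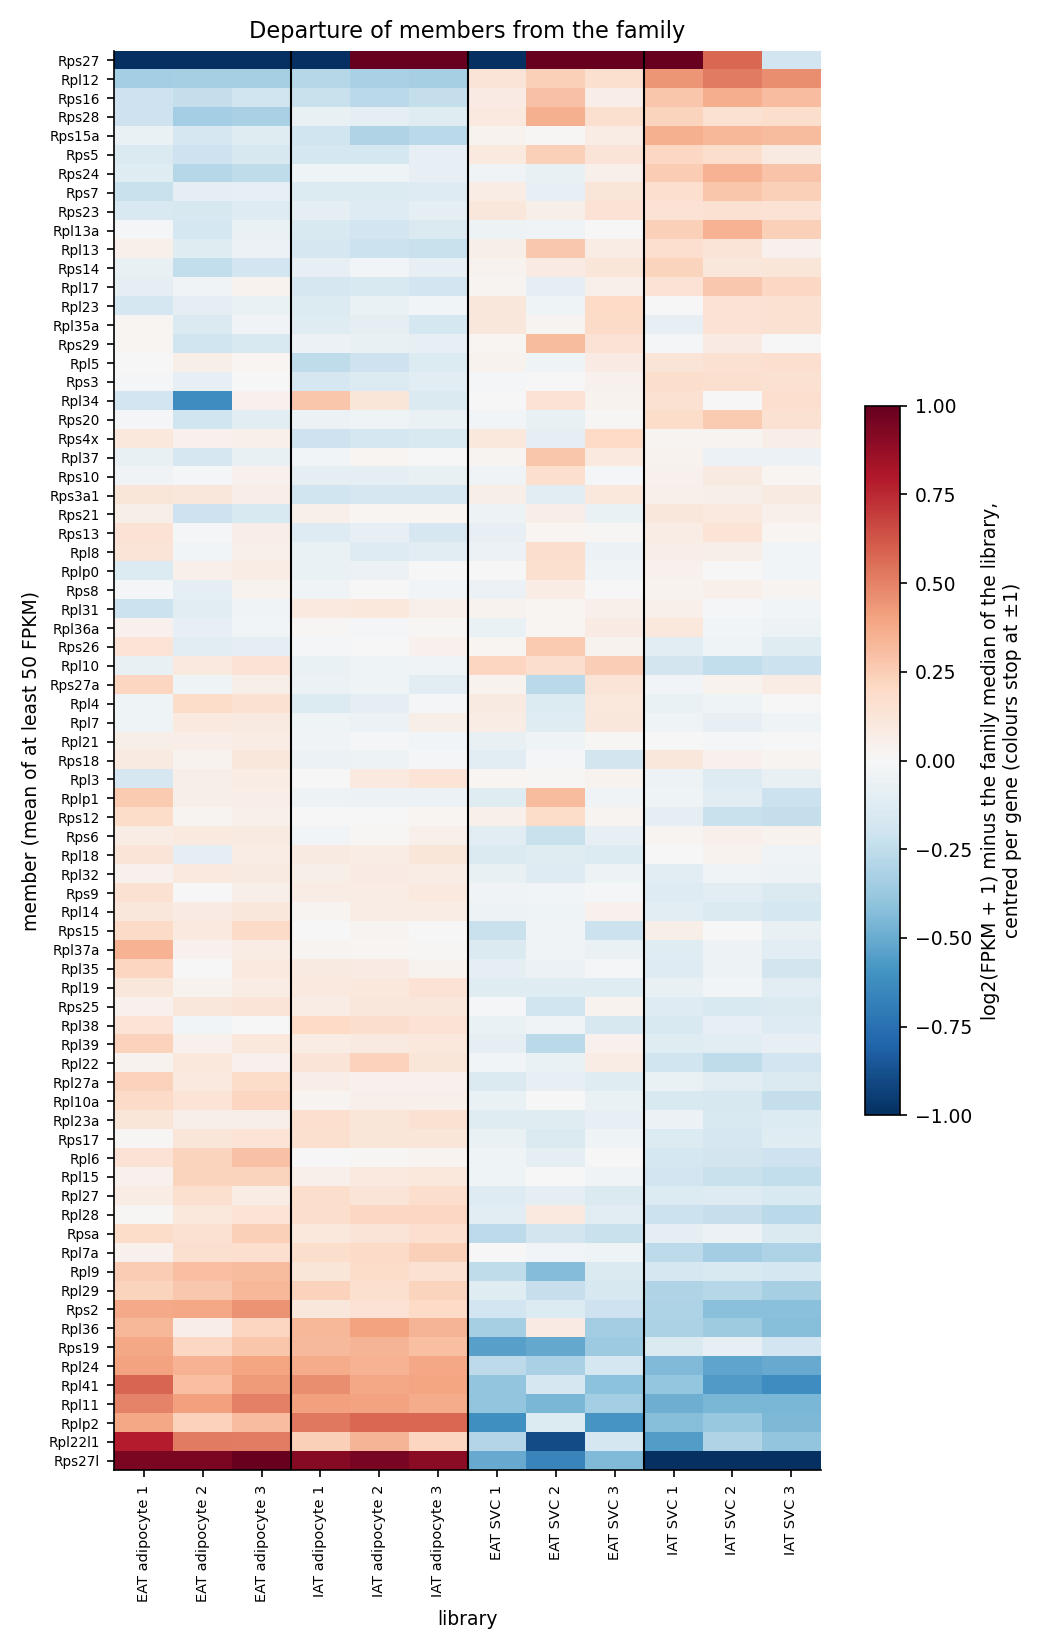
Departure of 75 of the 77 members of at least 50 FPKM (rows) from the family median of its library (columns, 12 libraries in 4 groups), as log2(FPKM + 1), centred per gene; red is above and blue below, and colours stop at ±1. Rows are ordered by the adipocyte minus SVC value, from Rps27 and Rpl12 at the top to Rpl22l1 and Rps27l at the bottom, and replicates differ most for Rps27 and Rpl34.

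Small-subunit members lay lower in adipocytes, relative to the family, than large-subunit members by their medians. The median centred difference was -0.005 for 33 small-subunit and 0.15 for 49 large-subunit members in EAT, and -0.09 and 0.19 in IAT. The ratio of summed FPKM, small over large subunit, was 0.729, 0.726 and 0.722 in EAT adipocytes and 0.720, 0.725 and 0.725 in IAT adipocytes. It was 0.824, 0.813 and 0.829 in EAT SVCs and 0.865, 0.864 and 0.866 in IAT SVCs, so that each SVC group lay apart from the other groups while both adipocyte groups overlapped. With the 4 near-identical rows at shared loci added, the ratio ran from 0.706 to 0.716 in EAT adipocytes, 0.703 to 0.706 in IAT adipocytes, 0.781 to 0.804 in EAT SVCs and 0.851 to 0.861 in IAT SVCs. These sums are over the members and carry no test.

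The paralogue pairs gave the patterns that differed most from the family. Their coding sequences show how far reads can tell them apart, and the pairs with the clearest difference are printed with the bases that differ within the pair in capitals. Sequences run from start to stop codon in GENCODE M21 (GRCm38). Rpl39 lies on chromosome X (chrX:37082519-37085184, minus strand) and Rpl39l on chromosome 16 (chr16:10170227-10174911, plus strand). They differ at 23 of 156 coding bases, with a longest identical run of 38.
Rpl39: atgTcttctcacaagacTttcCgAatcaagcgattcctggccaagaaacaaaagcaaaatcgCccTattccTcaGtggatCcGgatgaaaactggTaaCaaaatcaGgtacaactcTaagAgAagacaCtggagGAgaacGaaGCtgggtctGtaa
Rpl39l: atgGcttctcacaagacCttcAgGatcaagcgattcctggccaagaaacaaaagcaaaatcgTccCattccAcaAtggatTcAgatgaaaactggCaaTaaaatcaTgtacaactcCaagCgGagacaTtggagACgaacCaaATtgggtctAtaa
The Rps27 pair, Rps27 (chr3:90212666-90213648, minus strand) and Rps27l (chr9:66946117-66949509, plus strand) differ at 61 of 255 coding bases, with a longest identical run of 11.
Rps27: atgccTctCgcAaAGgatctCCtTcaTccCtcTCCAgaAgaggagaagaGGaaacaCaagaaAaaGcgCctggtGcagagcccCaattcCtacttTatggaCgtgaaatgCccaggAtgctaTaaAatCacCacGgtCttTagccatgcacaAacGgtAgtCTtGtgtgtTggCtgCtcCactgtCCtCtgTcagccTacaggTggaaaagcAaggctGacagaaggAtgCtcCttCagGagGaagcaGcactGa
Rps27l: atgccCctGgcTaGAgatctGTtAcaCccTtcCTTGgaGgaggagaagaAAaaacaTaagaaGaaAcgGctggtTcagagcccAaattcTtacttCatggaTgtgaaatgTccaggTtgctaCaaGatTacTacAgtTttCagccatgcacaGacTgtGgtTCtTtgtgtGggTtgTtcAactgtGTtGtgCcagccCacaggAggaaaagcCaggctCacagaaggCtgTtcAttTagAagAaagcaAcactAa
The capitals are spread along both pairs.

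Rpl39l, a paralogue of the exit-tunnel protein Rpl39 known mainly from male germ cells of mice, was higher in IAT in both fractions. It measured 0.106, 0 and 0 FPKM in EAT adipocytes and 3.21, 3.54 and 3.86 in IAT adipocytes. In SVCs it was at 0.216, 0.400 and 0.0682 FPKM in EAT and 2.60, 2.17 and 1.83 in IAT. Neither fraction overlapped between the depots, and in EAT adipocytes it was listed at 0 in 2 of 3 libraries. It passed the filter on low values through the IAT libraries alone, so it had to differ between depots, and its calls are given as a description. The log2(FPKM + 1) difference, IAT minus EAT, was 2.13 ± 0.11 (SE) in adipocytes and 1.38 ± 0.11 (SE) in SVCs. Rpl39 itself was about 738 FPKM in IAT adipocytes and 739 in EAT adipocytes, so that Rpl39l was the minor form in every group. The depot difference of Rpl39 was 0.04 ± 0.18 (SE), adjusted p = 0.88 in adipocytes and 0.65 ± 0.18 (SE), adjusted p = 0.012 in SVCs.

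Rps27l, a paralogue of Rps27 whose human gene is a target of p53, measured 192, 125 and 136 FPKM in EAT adipocytes, 162, 156 and 140.2 in IAT adipocytes, 101, 98.5 and 114 in EAT SVCs and 91.6, 94.9 and 91.6 in IAT SVCs. Adipocytes lay above SVCs in both depots, and IAT SVCs below EAT SVCs. The depot difference in SVCs was -0.17 ± 0.13 (SE), adjusted p = 0.35, which did not pass the test although the groups did not overlap. Rpl22l1, which Rpl22 represses in mice, measured 228, 124 and 129 FPKM in EAT adipocytes, 135, 135 and 115 in IAT adipocytes, 156, 111 and 181 in EAT SVCs and 210.2, 278 and 222 in IAT SVCs. Its EAT fractions overlapped (0.07 ± 0.23 (SE), adjusted p = 0.78), its IAT adipocytes were lower than IAT SVCs (-0.87 ± 0.23 (SE), adjusted p = 0.003), and its interaction was -0.94 ± 0.32 (SE), adjusted p = 0.04. Rpl22 followed the family, at -0.92 ± 0.13 (SE), adjusted p = 2.6e-05 in EAT and -1.18 ± 0.13 (SE), adjusted p = 2.4e-06 in IAT.

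Rpl7l1, a paralogue of Rpl7, measured 18.7, 17.3 and 17.1 FPKM in EAT adipocytes, 12.9, 14.3 and 13.1 in IAT adipocytes, 11.7, 12.1 and 13.7 in EAT SVCs and 12.3, 12.3 and 12.1 in IAT SVCs. EAT adipocytes stood above all other libraries, and it was the only member called lower in IAT adipocytes (-0.37 ± 0.07 (SE), adjusted p = 0.0017). Rpl7 did not pass in adipocytes (0.01 ± 0.13 (SE), adjusted p = 0.95) and rose in IAT SVCs (0.57 ± 0.13 (SE), adjusted p = 0.003). Rps4l, annotated by GENCODE as a transcribed processed pseudogene related to Rps4x, measured 31.96, 16.7 and 21.3 FPKM in EAT adipocytes, 37.6, 33.5 and 31.4 in IAT adipocytes, 11.2, 15.2 and 10.4 in EAT SVCs and 20.6, 16.2 and 16.8 in IAT SVCs. It was higher in IAT than in EAT adipocytes (0.58 ± 0.20 (SE), adjusted p = 0.036, with EAT replicate 1 reaching the IAT range), and Rps4x gave -0.17 ± 0.16 (SE), adjusted p = 0.45. In SVCs its depot difference did not pass (0.52 ± 0.20 (SE), adjusted p = 0.053). Rpl10 in adipocytes gave -0.02 ± 0.12 (SE), adjusted p = 0.91 and Rpl3 0.17 ± 0.11 (SE), adjusted p = 0.24 for IAT minus EAT. Their paralogues were near the floor. Rpl10l, known from testis, reached at most 0.238 FPKM, and Rpl3l, known from heart and skeletal muscle, at most 0.576 FPKM.

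**Figure D4:**
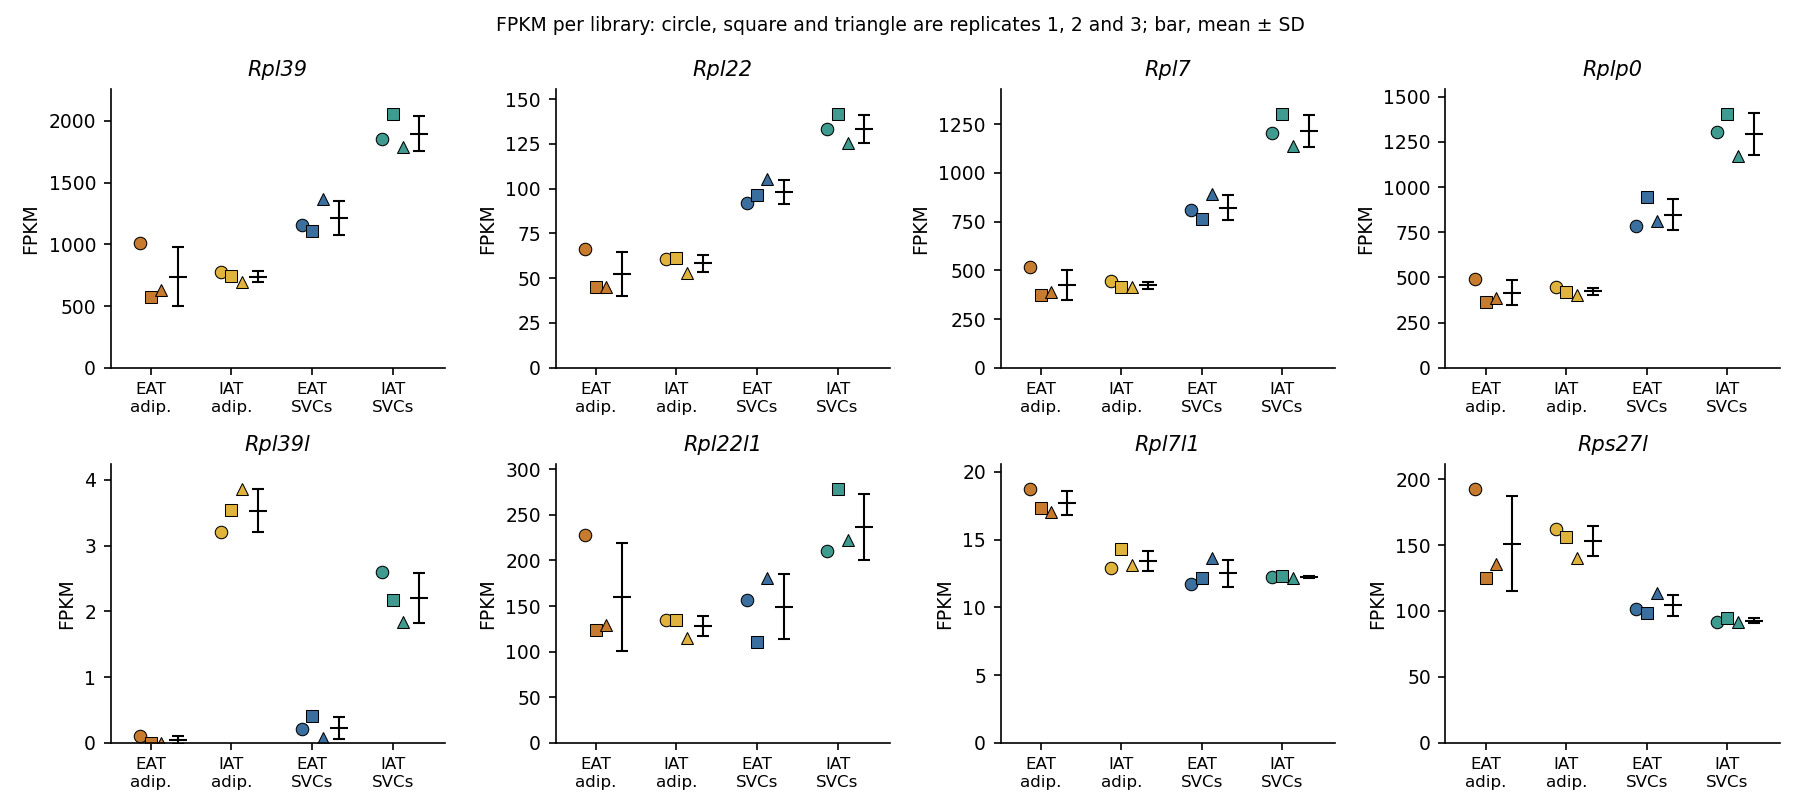
FPKM (y axes, from 0) of 3 parent genes above their paralogues, and of Rplp0 above Rps27l, in the 4 groups (EAT and IAT adipocytes, EAT and IAT SVCs); points are libraries, bars the mean ± SD of 3. Parent genes are highest in IAT SVCs, Rpl39l is near 0 in both EAT groups, Rpl7l1 is highest in EAT adipocytes and Rps27l is higher in adipocytes than in SVCs.

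Processed copies limit what can be said of single members. By blastn at 95% identity over 80% of the coding sequence, 75 of 84 members have at least 1 near-identical gene or pseudogene in GENCODE, up to 57 for Rpl21, and the sources used here do not say how reads with several positions were counted. For 14 members such a copy is a row of the tables. In 4 cases that row lies at the member's own locus and holds most of the signal. Rps27rt, whose coding sequence has 0 differences from that of Rps27, is placed by the tables at chr3:90212666-90213647, within the Rps27 locus, whereas GENCODE places it on chromosome 9. It averaged 1825 FPKM, and Rps27 itself gave 6.85, 5.14 and 3.99 FPKM in EAT adipocytes, 8.72, 43.2 and 40.8 in IAT adipocytes, 7.99, 87.5 and 98.6 in EAT SVCs and 180.0, 87.7 and 43.5 in IAT SVCs. The 3 libraries of IAT adipocytes, EAT SVCs and IAT SVCs thus spread widely for this row. Rpl34 shares its locus with Rpl34-ps1 (918 FPKM on average), Rpl26 with Gm15772 (1022) and Rpl30 with Gm12191 (954). Each of these member rows is uncertain. Summed per locus, all 4 followed the family's order. Rps27 with Rps27rt summed to 851 ± 269 FPKM in EAT adipocytes, 811 ± 57.95 in IAT adipocytes, 1793 ± 243 in EAT SVCs and 4048 ± 500.4 in IAT SVCs. Rpl26 with Gm15772 gave 633 ± 176, 673 ± 36.7, 1165 ± 45.9 and 1704 ± 144 FPKM, so that the sum was lower in adipocytes although the row of Rpl26 was higher. Without these 4 members, 69 of 78 were lower in EAT adipocytes, 74 in IAT adipocytes, and 68 were higher in IAT SVCs. The corresponding shares of all features were 52.7%, 53.9% and 14.0%.

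**Figure D5:**
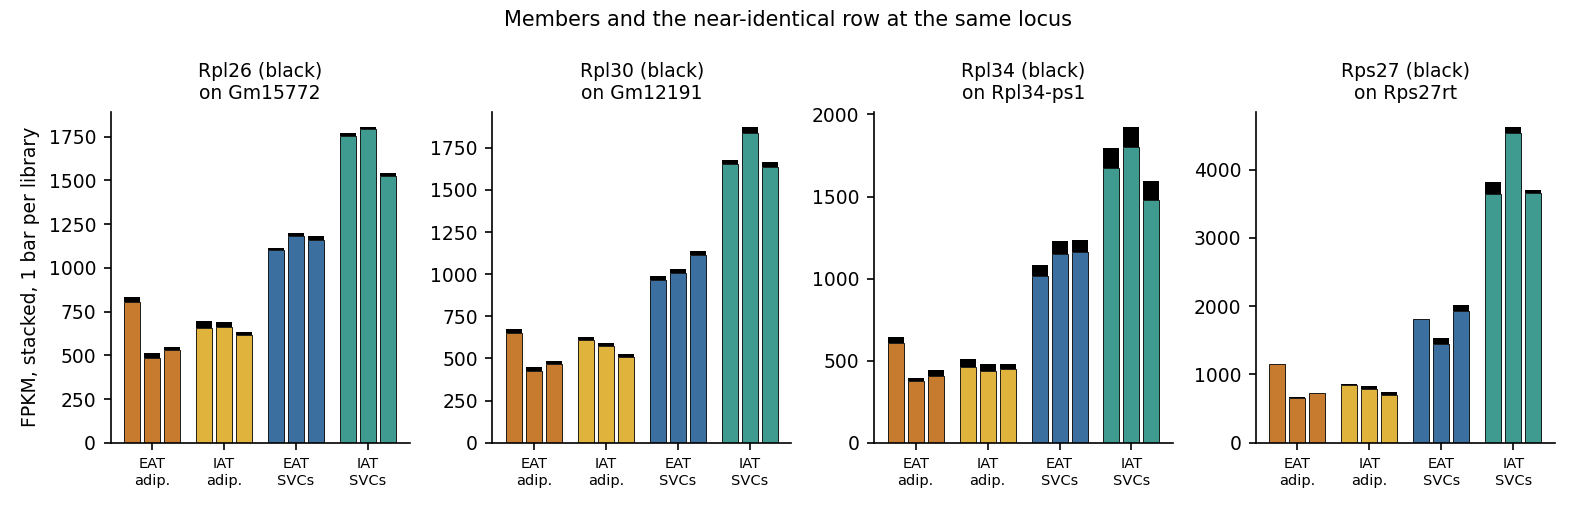
FPKM (y axes, from 0, 1 stacked bar per library, coloured by group) of 4 members (black) and of the near-identical row at the same locus (coloured). The member holds a small part of each bar, and the stacked sums are lowest in adipocytes, higher in EAT SVCs and highest in IAT SVCs.

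The members' promoters, which the rule did not use, were searched for 3 motifs. RefSeq start sites (GRCm38.p6) were matched for 63 of 84 members. Within 40 bases either side of the start, on the sense strand, CTTTCC stood in 17 of 63 (27.0%) and the overlapping motif CTCTTT in 16 (25.4%), against 4.32% and 3.73% of 27025 genes in the same window. On either strand the shares were 30.2% and 27.0%, against 8.32% and 7.25%. The ETS core CCGGAAG, on either strand of the window from 250 bases before to 50 after the start, was found in 26 members (41.3%) and in 9.93% of all genes. These are matches of letters and were not tested as sites. Windows of 60 bases, from 40 before to 20 after the start, are shown for 4 members of the common pattern and for 2 that departed from it, with the motifs in capitals.
Rpl35a, chr16:33056442-33056501, plus strand: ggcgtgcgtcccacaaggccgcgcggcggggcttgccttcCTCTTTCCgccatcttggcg
Rpl28, chr7:4792925-4792984, plus strand: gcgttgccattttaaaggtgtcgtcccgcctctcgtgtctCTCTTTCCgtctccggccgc
Rpl18, chr7:45718031-45718090, plus strand: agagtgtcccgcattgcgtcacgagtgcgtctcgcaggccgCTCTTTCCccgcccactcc
Rps6, chr4:86857348-86857407, minus strand: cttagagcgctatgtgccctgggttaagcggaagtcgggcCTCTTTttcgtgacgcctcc
Rpl39l, chr16:10170188-10170247, plus strand: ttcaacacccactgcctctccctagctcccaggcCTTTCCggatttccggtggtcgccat
Rps27l, chr9:66946046-66946105, plus strand: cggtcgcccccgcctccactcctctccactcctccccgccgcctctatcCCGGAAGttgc
In the first 4 a pyrimidine run holds CTCTTT. The Rpl39l window holds CTTTCC and the Rps27l window the ETS letters. Every window shown holds a motif, whereas CTTTCC and CTCTTT stood in only 17 and 16 of 63 members. Rpl35a and Rps27l each have another listed start whose 60-base window holds none of the motifs.

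Other genes of the translation machinery were taken from lists, whose counts stand against the shares of all features already given: 52.7% lower and 31.1% higher in EAT adipocytes than in SVCs, and 53.9% and 29.8% in IAT. Among ribosomal proteins outside the name pattern, Fau, made as a fusion with a ubiquitin-like protein, and Gnb2l1, the scaffold protein Rack1 of the small subunit, were lower in adipocytes of both depots. Their log2 differences were -0.91 ± 0.20 and -1.29 ± 0.12 in EAT and -1.62 ± 0.20 and -1.92 ± 0.12 in IAT. Both were higher in IAT SVCs (0.60 ± 0.20 and 0.51 ± 0.12). Rpl36al passed none of these tests. Of 18 genes listed as TOP mRNAs (elongation and initiation factors with Pabpc1, Npm1, Tpt1, Naca, Btf3, Hnrnpa1 and Nap1l1), 12 were lower and 2 higher in EAT adipocytes (median -0.63), and 16 and 2 in IAT (median -0.89). Eif4b, an initiation factor, was lower (-0.98 ± 0.07 in EAT and -1.08 ± 0.07 in IAT), as was Tpt1 in IAT (-1.82 ± 0.14), whereas Nap1l1, a histone chaperone, was higher in EAT adipocytes (1.48 ± 0.10). Between SVCs, 7 of 18 were higher in IAT (14.0% of all features), among them Eef1g (0.61 ± 0.11 (SE), adjusted p = 0.00089) and Eef1b2 (0.61 ± 0.15 (SE), adjusted p = 0.0065), subunits of the elongation factor complex.

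In EAT, ribosome assembly genes were called at shares near those of all features (52.7% lower and 31.1% higher). Of 37 biogenesis genes tested, 18 were lower and 13 higher in EAT adipocytes (median -0.18, against -0.31 over all features), and 23 and 8 in IAT (-0.40, against -0.34, with 53.9% and 29.8% of all features). Nop58, a box C/D snoRNP protein, fell by 1.53 ± 0.08 in EAT and Nop56, its partner, by 1.98 ± 0.09 in IAT. Nop56 was also higher in IAT than in EAT SVCs (0.82 ± 0.09 (SE), adjusted p = 1.7e-05), where 5 of 37 were higher and 1 lower (all features, 14.0% and 26.2%). In IAT adipocytes 14 of 37 were lower than in EAT and 2 higher (all features, 27.3% and 10.3%). Of 16 genes of the RNA polymerase I machinery and its regulators, 6 were higher and 6 lower in EAT adipocytes, and 3 and 9 in IAT, against the same shares of all features. Ubtf, its upstream binding factor, was lower in adipocytes of both depots (-0.38 ± 0.06 and -0.40 ± 0.06). Among 23 tested genes of TOP mRNA control and the mTORC1 pathway, 12 were higher and 3 lower in EAT adipocytes, and 11 and 4 in IAT, where all features gave 31.1% and 52.7% in EAT and 29.8% and 53.9% in IAT. Eif4ebp1, the repressor of cap-dependent initiation that mTORC1 inactivates, measured 372, 285 and 308 FPKM in EAT adipocytes and 23.1, 30.00 and 23.9 in EAT SVCs. Its log2 difference was 3.595 ± 0.12 (SE), adjusted p = 1.8e-11 in EAT and 3.53 ± 0.12 (SE), adjusted p = 2e-11 in IAT, opposite in sign to the ribosomal proteins. Deptor, which inhibits mTOR, was higher in adipocytes too (0.94 ± 0.11 and 1.77 ± 0.11). The higher genes were not inhibitors alone. The S6 kinase gene Rps6kb2 averaged 8.97 and 9.69 FPKM in EAT and IAT adipocytes, against 5.14 and 6.11 in the respective SVCs. Lamtor1, on the same list, averaged 111 and 110 against 50.5 and 44.8 FPKM. Lamtor3 went the other way, at 25.3 and 20.9 against 40.5 and 31.2 FPKM. Activity of the pathway was not tested.

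The proteins of the mitochondrial ribosome, encoded by a separate set of nuclear genes, went the other way. They held 0.596 to 0.721% of all FPKM in EAT adipocytes, 0.674 to 0.695% in IAT adipocytes, 0.255 to 0.271% in EAT SVCs and 0.253 to 0.269% in IAT SVCs. Of 77 tested, 74 were higher in EAT adipocytes than in SVCs and 73 in IAT, with medians of 1.26 and 1.28, and 0 were lower in either. Of all features, 31.1% and 29.8% were higher and 52.7% and 53.9% lower, with medians of -0.31 and -0.34. Between SVCs, 4 of 77 were higher in IAT, against 14.0% of all features. The median was 0.09, where the cytosolic members had 0.64 and all features -0.06.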

How the data were processed

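RNA of 12 libraries (4 groups of 3), total RNA per the labels, was sequenced, and the authors deposited 1 table per library of FPKM with confidence bounds per feature. The submitters' processing notes name TopHat, Cufflinks, mm10 and GRCm38, without roles or order, and versions, multi-mapping rules and strand handling are not given in the sources used here. FPKM are no counts, so log2(FPKM + 1) was tested with limma 3.58.1 (R 4.3.3), using moderated variances with a mean trend, 4 group means and 5 contrasts. The test took 13175 of 24890 features, those reaching 1 FPKM in 3 libraries or more, and 9 failed estimates were left out. P-values were adjusted by Benjamini-Hochberg over all features tested, with a threshold of 0.05. A second fit subtracted the library median of 77 members. Fold changes on this scale understate changes of low genes. The 5 contrasts share libraries. Fits were tested on simulated data. Coding sequences came from GENCODE M21 and were compared with blastn 2.17.0, and promoters came from RefSeq. Members and lists were chosen with earlier results of these data known. Named members were those of fixed roles or pairs and, per contrast, up to 5 with the largest called differences in each direction, at 5 FPKM or more and without overlap. Values of a few single genes are not reported here. Alternatives covered pseudocount, filter, scaling, length, trend, weights, block and each library left out.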

Additional observations from a re-analysis of the deposited data

Results flagged for a closer look

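With each library left out in turn, 16 to 55 members departed in the negative direction in limma's interaction test. With all libraries, depot differences in adipocytes departed negatively from those in SVCs for 35 members, against 17.8% of all features. Named among these were Rps15a (-1.0), Rpl13a (-0.94), Rpl22l1 (-0.94), Rpl5 (-0.92), Rpl17 (-0.92), Rps18 (-0.85), Rps6 (-0.82), Rps4x (-0.78), Rps27a (-0.77), Rpsa (-0.75), Rpl32 (-0.59), Rplp0 (-0.58), Rpl7 (-0.55), Rpl7l1 (-0.35), all as log2 values. Rpl39l had 0.75, a larger depot difference in adipocytes, and passed the filter on low values through IAT libraries alone. Relative to the family median, Rps15a (-0.43), Rpl13a (-0.38), Rpl5 (-0.36), Rpl17 (-0.35) and Rps3a1 (-0.33) had negative interactions. Rps27l (0.77), Rps4l (0.63), Rpl7a (0.36), Rpl10 (0.33) and Rpl28 (0.31) had positive ones.

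Near-identical rows outside the gene family held signal at the locus of 4 members. Their mean over 12 libraries was 1824.6 FPKM for Rps27rt, 1022.4 for Gm15772 at Rpl26, 954.23 for Gm12191 at Rpl30 and 918.33 for Rpl34-ps1.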

How the results depend on the processing

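No called difference of a named member changed sign in the settings tried. Across 168 results on named members, 3422 values kept their side of the threshold, 167 fell short of it and 50 newly passed. The fraction comparisons and the SVC depot comparison kept their directions in all settings. Leaving out each library in turn, members higher in IAT adipocytes numbered 1 to 41 and lower 1 to 1 (median -0.07 to 0.25, all features 3678 to 6476), the highest count being without EAT adipocyte replicate 1. In the SVC depot comparison they numbered 51 to 78 and 0 to 0 (0.58 to 0.70, 4053 to 6570). In the EAT fraction comparison they numbered 3 to 4 and 67 to 77 (-1.10 to -0.76, 10367 to 11194), in IAT 3 to 4 and 74 to 77 (-1.53 to -1.38, 10495 to 11461), and in the interaction 1 to 2 and 16 to 55 (-0.69 to -0.36, 3342 to 5263). Relative to the family the ranges were, in the same order, 1 to 9 and 1 to 9, 10 to 14 and 9 to 18, 28 to 34 and 9 to 17, 33 to 39 and 18 to 22, and 4 to 12 and 5 to 13. The EAT adipocyte share was 6.60% without replicate 1. With no filter on low values, 1 member was higher in IAT adipocytes and 1 lower in IAT SVCs. After rescaling to TPM, 1 was lower in IAT SVCs and 55 were lower in the interaction (all features, 31.1% and 12.7%). Under median-of-ratios scaling, 5 were higher in EAT adipocytes than in SVCs (median -0.50, all features 42.5%). The IAT fraction median was then -1.03, and 21 were lower in the interaction (all features, 15.7%). Under quantile scaling, 6 were lower in IAT adipocytes (all features, 16.8%) and 1 was lower in IAT SVCs (median 0.30, all features 20.8%). In that setting 5 were higher in EAT adipocytes than in SVCs (all features, 44.0%), and the IAT fraction median was -1.12. With the gene length trend removed, 2 were lower in IAT adipocytes and 61 in the interaction, and relative to the family 1 was higher in IAT adipocytes. Array weights gave 17 higher in IAT adipocytes, and the cause was not tested. For the filter, length, weight and block settings, shares of all features by direction are not shown. The same holds for libraries left out other than EAT adipocyte replicate 1. Counts in those settings therefore stand without a background. Libraries were not treated as paired. Deviations from the group means were correlated, and 5 of 18 same-number correlations exceeded 0.1 (-0.31 to 0.37), while other-number correlations ran from -0.46 to 0.37. Between EAT and IAT adipocytes the same-number values were 0.37, -0.08 and 0.35. With 3 libraries per group this cannot decide whether libraries of the same number share mice. With the replicate block, 1 member departed upwards and 3 downwards in IAT adipocytes relative to the family. Without the top 50 features, shares were 10.005% in EAT adipocytes, 10.4% in IAT adipocytes, 16.0% in EAT SVCs and 23.7% in IAT SVCs. With rows at the same locus added, they were 7.80%, 13.7% and 19.9% in the last 3. Adding those rows, removing the length trend before centring, and leaving out members at shared loci were chosen after seeing the data.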
